A study of Homo sapiens with 12 samples.

Results

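The genes described here are 9 contractile actin genes and NPPB, 10 of the 58288 genes in the count table. They comprise the muscle actins ACTA2, ACTC1 and ACTG2, the actin-binding proteins TAGLN, CNN1 and CALD1, the myosin light chain MYL9, the tropomyosins TPM1 and TPM2, and the peptide hormone gene NPPB. All are linked to serum response factor (SRF). They were selected on their link to SRF and on measured values, with earlier results of these data known: the counts of ACTC1 and NPPB in long-term knockdown libraries. Every comparison that uses those libraries is therefore given for these genes as a description, with no test. Of the 10 genes, 9 were among the 13959 that passed the filter on low counts. TPM2 was not, with 15 counts over the 12 libraries.

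RNA was sequenced from HK2, an established line of human proximal tubule cells, in 4 groups of 3 libraries. All cells carried a stably expressed short hairpin RNA (shRNA), either against FLCN (FLCN knockdown), the tumor suppressor gene of Birt-Hogg-Dubé syndrome, or against no human gene (nontarget). Short-term cells were harvested at fewer than 30 passages, and long-term cells after 120 passages by the labels. The lines went through clonal selection and the clone behind each library is not given in the sources used here, so an effect of the shRNA and of a clone cannot be told apart.

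SRF binds a short DNA element, the CArG box, in the promoters of muscle and cytoskeletal genes. Its partners MRTFA and MRTFB are held in the cytoplasm by free actin monomers and move into the nucleus when actin is drawn into filaments, which ties the output of these genes to the state of the cytoskeleton. The muscle actins belong to smooth and cardiac muscle, and ACTA2 is widely used as a marker of myofibroblasts in the kidney. NPPB encodes B-type natriuretic peptide, a hormone of the heart that promotes salt and water loss by the kidney through the receptor NPR1, which makes cyclic GMP.

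The promoter letters below are shown because the CArG box is the element through which SRF acts. RefSeq promoters on GRCh38.p14, each reaching from 250 bases before to 50 bases after a transcription start, were found for 7 of the 10 genes, with 14 starts in all (ACTA2, ACTC1, ACTG2, CNN1, TPM1, TPM2 and CALD1). The CArG box was searched by name over its 10 letters, whose consensus reads the same way on both strands. Of 35116 promoters in the table, 454 (1.29%) held it. Among the 7 genes, ACTC1 held 1 box and ACTG2 held 2, and the other 5 held none in these windows. With 1 letter allowed to differ, 18.9% of all promoters had a match, and 4 of the 7 genes did: ACTC1, ACTG2, ACTA2 with 2 matches at the start inside the gene, and CALD1 with matches from 244 and 26 bases before a pair of its starts. The boxes are in capitals in the sequences, which run 5′ to 3′ on the strand of the gene. Coordinates are those of each whole stretch printed. The ACTC1 stretch (chr15:34795639-34795668, minus strand) overlaps the gene AC087457.1 and an exon of ACTC1 annotated by GENCODE 29. Its box lies 109 to 100 bases before the start. The ACTG2 stretches (chr2:73892888-73892917 and chr2:73892925-73892954, plus strand) hold boxes 110 to 101 and 73 to 64 bases before the start, and the second stretch overlaps an annotated ACTG2 exon. The ACTA2 stretch (chr10:88952794-88952923, minus strand) lies within ACTA2 and STAMBPL1 and overlaps no exon, and its capitals, 121 to 112 and 71 to 62 bases before the start, differ from the box by 1 letter.
ACTC1: gcgaaggggaCCAAATAAGGcaaggtggca
ACTG2, upstream box: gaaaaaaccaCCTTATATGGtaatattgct
ACTG2, downstream box: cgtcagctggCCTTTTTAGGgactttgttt
ACTA2: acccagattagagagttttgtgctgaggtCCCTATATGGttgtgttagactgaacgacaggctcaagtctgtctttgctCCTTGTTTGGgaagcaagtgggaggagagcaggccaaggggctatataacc

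Library totals ran from 5825779 to 8991051 counts, and levels are given as CPM, each gene's counts relative to the library total scaled by the normalization factor of edgeR. FLCN stood at 12.7, 16.7 and 16.5 CPM in short-term nontarget libraries and at 5.95, 6.58 and 5.66 CPM in short-term knockdown libraries. After long-term culture it stood at 9.92, 11.9 and 12.2 CPM without and at 6.70, 6.31 and 7.97 CPM with knockdown. FLCN was lower in every knockdown library than in every nontarget library of its time (log2 fold change −1.29 ± 0.17 SE, adjusted p = 0.00011 short-term, and −0.68 ± 0.17, adjusted p = 0.0061 long-term). Of 12 proximal tubule markers, 9 stayed under 2 CPM in every library, with LRP2, SLC22A6, SLC22A8 and HNF4A at 0 counts, while the epithelial keratins KRT8 (1457 to 2587 CPM) and KRT18 (572 to 921 CPM) were abundant. Of 8 smooth muscle markers, 7 stayed under 2 CPM in every library, with SMTN as the exception, and the summed level of the list overlapped between long-term nontarget (36.3 to 51.8 CPM) and long-term knockdown libraries (35.5 to 57.0 CPM). The 5 endothelial and the 5 leukocyte markers were all under 2 CPM in every library.

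Genes of other marker lists moved with long-term knockdown beside the genes described here. The summed proximal tubule markers were higher with knockdown, at 135 to 140 CPM against 74.6 to 97.4 CPM, with GGT1 (0.84 ± 0.16, adjusted p = 0.00060) and PDZK1 (0.61 ± 0.14, adjusted p = 0.0023) called. Among the 8 epithelial markers KRT7 (−1.41 ± 0.31, adjusted p = 0.0026), PAX8 (−0.61 ± 0.10, adjusted p = 0.00020), EPCAM (−0.58 ± 0.18, adjusted p = 0.024) and CDH2 (−0.33 ± 0.10, adjusted p = 0.015) fell, while the sums overlapped (3316 to 3697 CPM without and 2537 to 3436 CPM with knockdown). The EPCAM call was lost without replicate 1 or 2 of long-term nontarget or of long-term knockdown (adjusted p up to 0.080), and the CDH2 call without replicate 1 of long-term nontarget or 2 of long-term knockdown (0.052 in both). Of the fibroblast or pericyte markers PDGFRB fell (−3.10 ± 0.39, adjusted p = 1.0e-05), and the sums overlapped (41.8 to 58.5 and 36.4 to 46.0 CPM). The summed endothelial markers, each under 2 CPM, ran from 0.929 to 2.20 CPM in long-term nontarget and from 0 to 0.170 CPM in long-term knockdown libraries. Short-term, the proximal tubule sums were also higher with knockdown (102 to 114 against 73.5 to 81.5 CPM). So were the epithelial (3094 to 3974 against 2652 to 2912 CPM) and the fibroblast or pericyte sums (56.6 to 70.6 against 35.3 to 46.7 CPM). RGS5 (1.42 ± 0.20, adjusted p = 0.00014), GGT1 (0.51 ± 0.16, adjusted p = 0.048) and PAX8 (0.33 ± 0.10, adjusted p = 0.049) rose short-term, and CDH2 fell (−0.33 ± 0.10, adjusted p = 0.040). The short-term calls of GGT1, PAX8 and CDH2 were lost in 9, 8 and 7 of 12 fits without 1 library. The part of these differences in the levels of the 10 genes was not tested.

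ACTC1, the main actin of heart muscle, was not detected after long-term knockdown, where all 3 libraries held 0 counts. Its levels were 7.79, 8.05 and 10.2 CPM in short-term nontarget, 11.4, 11.4 and 25.8 CPM in short-term knockdown and 7.504, 8.67 and 9.32 CPM in long-term nontarget libraries. The nontarget libraries of both times overlapped, and each short-term knockdown library lay above each short-term nontarget library. Against a floor of 3 counts over the long-term knockdown group, ACTC1 was at least 60.5-fold lower there than in long-term nontarget cells (184 counts) and at least 109.7-fold lower than in short-term knockdown cells (314 counts). In bulk RNA, fewer cells with the transcript and less transcript per cell cannot be told apart. ACTC1 shares 367 exonic bases with AC087457.1 on the opposite strand, and the library kit does not mark strand, so their reads cannot be told apart there. In the comparisons that were tested (edgeR), the short-term knockdown difference was 0.86 ± 0.28 on the log2 scale (adjusted p = 0.067) and long culture of nontarget cells gave −0.03 ± 0.29 (adjusted p = 0.98). Neither passed the threshold of an adjusted p of 0.05. Without replicate 3 of short-term knockdown, the highest library, the short-term difference was 0.39 (adjusted p = 0.29), and without replicate 1 or 2 of that group it was 1.06 or 1.052 (adjusted p = 0.034 and 0.032).

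ACTA2, smooth muscle alpha actin (chr10:88935074-88991339 on GRCh38), was a low transcript in all groups. Its levels were 5.60, 4.25 and 4.40 CPM in short-term nontarget, 3.67, 2.34 and 3.89 CPM in short-term knockdown, 1.34, 2.63 and 2.33 CPM in long-term nontarget, and 0.693, 0 and 0.678 CPM in long-term knockdown libraries. The 4 groups thus ran downward in that order of means, with an overlap between short-term knockdown and long-term nontarget. The short-term knockdown difference was −0.50 ± 0.32 (adjusted p = 0.39) and the difference of long-term from short-term nontarget cells −1.09 ± 0.33 (adjusted p = 0.055), and neither was called, although every library of the lower group lay below every library of the other in both cases. Long-term knockdown cells held 10 counts and lay 1.66 ± 0.42 below long-term nontarget cells on the log2 scale. ACTA2 shares 516 exonic bases with ACTA2-AS1 and 380 with FAS on the opposite strand, and the library kit does not mark strand, so their reads cannot be told apart there.

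ACTG2, smooth muscle gamma actin (chr2:73892314-73919865), was at 2.19, 1.97 and 2.04 CPM in short-term nontarget, 1.77, 1.46 and 4.25 CPM in short-term knockdown, 2.01, 2.01 and 4.53 CPM in long-term nontarget, and 0.231, 0 and 0.170 CPM in long-term knockdown libraries. The first 3 groups overlapped, and all long-term knockdown libraries lay below them. With 3 counts against 63, the level was 20.7 times lower than in long-term nontarget cells (95% counting interval 6.78 to 103) and, against 48 counts, 16.8 times lower than in short-term knockdown cells (5.40 to 84.1). The tested differences were 0.19 ± 0.40 for short-term knockdown (adjusted p = 0.84) and 0.43 ± 0.38 for long culture without knockdown (adjusted p = 0.62).

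**Figure D1:**
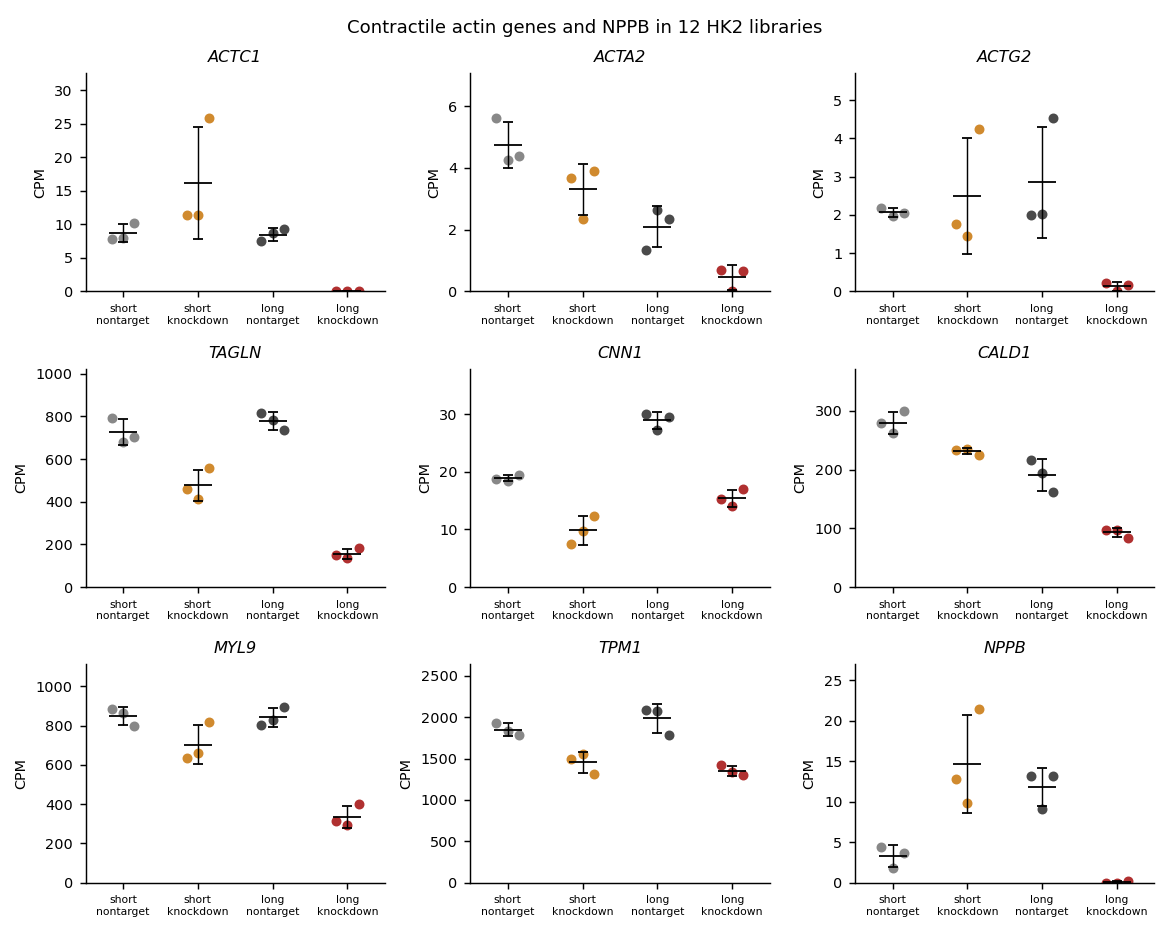
Levels in CPM (vertical axes, linear from 0) of the 9 tested genes in the 12 libraries, by group (horizontal axes). Points are libraries and bars are the mean ± SD of 3; ACTC1 is at 0 in all 3 long-term knockdown libraries and NPPB at 0, 0 and 0.170 CPM, while TPM1 keeps 1300.0 to 1421 CPM there.

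TAGLN, which encodes transgelin, an actin-bundling protein of smooth muscle and an SRF target (chr11:117199321-117204782), was abundant and lower with knockdown at both times. It stood at 795, 680 and 702 CPM in short-term nontarget and at 458, 415 and 557 CPM in short-term knockdown libraries. It stood at 816, 783 and 735 CPM in long-term nontarget and at 148, 137 and 183 CPM in long-term knockdown libraries. The knockdown libraries lay below the nontarget libraries of the same time without overlap, and the nontarget libraries of both times overlapped. The short-term fall was −0.61 ± 0.12 (34.3% lower, adjusted p = 0.0034). The long-term difference, given without a test, was −2.32 ± 0.13 (79.9% lower). TAGLN shares 446 exonic bases with PCSK7.

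CNN1, calponin 1, a smooth muscle protein that restrains actomyosin (chr19:11538717-11550323), kept to another order of groups. Its levels were 18.9, 18.4 and 19.5 CPM in short-term nontarget, 7.47, 9.65 and 12.4 CPM in short-term knockdown, 30.0, 27.3 and 29.6 CPM in long-term nontarget, and 15.3, 14.1 and 17.0 CPM in long-term knockdown libraries. No 2 groups overlapped, and short-term knockdown was the lowest group. CNN1 fell with short-term knockdown by 0.94 ± 0.16 on the log2 scale (47.9% lower, adjusted p = 0.0011) and rose 1.53-fold with long culture of nontarget cells (0.61 ± 0.15, adjusted p = 0.016). The second call was lost without replicate 1 or 2 of short-term nontarget or replicate 3 of long-term nontarget (adjusted p = 0.071, 0.074 and 0.053). The long-term knockdown difference was −0.90 ± 0.15 (46.4% lower), and CNN1 was higher in long-term than in short-term knockdown cells (0.65 ± 0.17), both as a description. The difference between its long-term and short-term knockdown effects was 0.04 ± 0.19.

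CALD1, caldesmon, which binds actin and tropomyosin (chr7:134744252-134970728), declined with long culture of nontarget cells. Its knockdown libraries lay below the nontarget libraries of the same time, a difference that was not called short-term and not tested long-term. It stood at 279, 262 and 299 CPM in short-term nontarget, 234, 234 and 226 CPM in short-term knockdown, 217, 193 and 162 CPM in long-term nontarget, and 97.1, 97.7 and 84.0 CPM in long-term knockdown libraries. The 4 groups formed 4 steps without overlap. The fall with long culture of nontarget cells was −0.55 ± 0.11 (31.9% lower, adjusted p = 0.0033), and the short-term knockdown difference of −0.28 ± 0.11 did not pass (adjusted p = 0.12). The long-term knockdown difference was −1.03 ± 0.11 (51.1% lower).

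MYL9, a regulatory light chain of smooth muscle and nonmuscle myosin (chr20:36541484-36551447), was lower in long-term knockdown cells than in any other group. Its levels were 884, 865 and 797 CPM in short-term nontarget, 633, 659 and 819 CPM in short-term knockdown, 803, 829 and 897 CPM in long-term nontarget, and 315, 293 and 400 CPM in long-term knockdown libraries. The first 3 groups overlapped pairwise. The tested differences were −0.27 ± 0.12 for short-term knockdown (adjusted p = 0.18, and 0.044 without replicate 3 of short-term knockdown) and −0.01 ± 0.12 for long culture of nontarget cells (adjusted p = 0.98). The long-term knockdown difference was −1.33 ± 0.12 (60.2% lower).

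TPM1, a tropomyosin that winds along actin filaments, was the most abundant of the 10 transcripts in CPM and had the smallest long-term difference of the 9 tested. It stood at 1935, 1832 and 1786 CPM in short-term nontarget, 1497, 1558 and 1314 CPM in short-term knockdown, 2089, 2081 and 1786 CPM in long-term nontarget, and 1421, 1337 and 1300.0 CPM in long-term knockdown libraries. The knockdown libraries of both times overlapped one another and lay below all nontarget libraries. The short-term fall was −0.35 ± 0.10 (21.3% lower, adjusted p = 0.030). That call was lost without any 1 of replicates 1, 2 and 3 of short-term nontarget (adjusted p = 0.13, 0.087 and 0.058) and without replicate 1 or 3 of short-term knockdown (0.065 and 0.10). The long-term knockdown difference was −0.55 ± 0.10 (31.9% lower), and long culture of nontarget cells gave 0.10 ± 0.10 (adjusted p = 0.66). TPM1 shares 2070 exonic bases with TPM1-AS. TPM2, the beta tropomyosin of slow muscle, had 0 to 6 counts in each library and no test.

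NPPB (chr1:11857464-11858931) went in opposite directions at the 2 times. Its levels were 4.37, 1.82 and 3.61 CPM in short-term nontarget and 12.8, 9.80 and 21.4 CPM in short-term knockdown libraries. They were 13.1, 9.14 and 13.2 CPM in long-term nontarget libraries and 0, 0 and 0.170 CPM in long-term knockdown libraries, where 1 read was counted in all. Short-term knockdown and long-term nontarget libraries overlapped with each other and lay above all short-term nontarget libraries. NPPB rose 4.13-fold with short-term knockdown (log2 2.05 ± 0.31, adjusted p = 0.00038) and 3.40-fold with long culture of nontarget cells (1.76 ± 0.31, adjusted p = 0.0017), both higher in 3 of 3 libraries. In long-term knockdown cells, with 1 count against 259, the level was 256 times lower than in long-term nontarget cells (95% counting interval 45.5 to 10134). Against the 289 counts of short-term knockdown cells it was 303 times lower (53.9 to 12000).

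**Figure D2:**
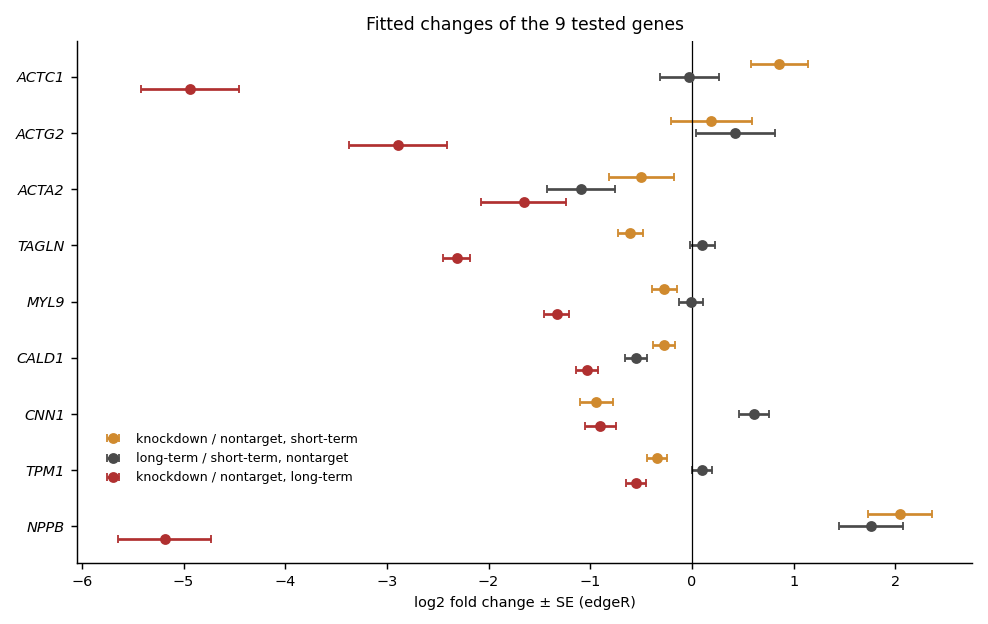
Log2 fold changes (horizontal axis) with their SE for the 9 tested genes in 3 comparisons. NPPB lies at 2.05 and 1.76 in the tested comparisons and far to the left in the long-term knockdown comparison; the fitted values there for ACTC1, ACTG2 and NPPB, with 0, 3 and 1 counts, depend on the prior count of 2 and are no bounds.

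Counted over the genes, 1 of 9 was called higher with short-term knockdown (NPPB), where 5.62% of all genes tested were higher, and 3 were called lower (TAGLN, CNN1 and TPM1), where 4.71% were. Long culture of nontarget cells gave 2 calls higher (NPPB and CNN1) beside 3.17% of all genes, and 1 lower (CALD1) beside 4.38%. These comparisons share the short-term nontarget libraries. The counts for the 3 comparisons with long-term knockdown libraries are a description of the fit across all genes: the 10 genes were chosen with these contrasts known and the filter on low counts admits a gene through its highest group, so nothing is read from these counts or from the shares beside them. In long-term knockdown against long-term nontarget cells, 9 of 9 had fits below the threshold in the lower direction and none in the higher, beside 15.8% and 13.7% of all genes, and in 9 of 9 every knockdown library lay below every nontarget library, beside 20.7% of all genes. In long-term against short-term knockdown cells 7 were lower and CNN1 higher, beside 15.2% and 11.5%. In the difference of the knockdown effect between the times, 6 of 9 were lower (ACTC1, ACTG2, TAGLN, MYL9, CALD1 and NPPB) and 0 higher, beside 8.43% and 4.98%.

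Levels of different genes were compared per kilobase of exon (CPM per kb). In short-term nontarget cells MYL9 was at 301 ± 16.2 (SD, n = 3), TAGLN at 185 ± 15.5, TPM1 at 144 ± 5.92, CALD1 at 28.4 ± 1.88, CNN1 at 6.55 ± 0.19, NPPB at 4.71 ± 1.89, ACTC1 at 1.89 ± 0.29, ACTA2 at 1.60 ± 0.25 and ACTG2 at 0.543 ± 0.029. CNN1 and NPPB did not differ beyond their spread, nor did ACTC1 and ACTA2. With the length of the longest transcript in place of all exons, TPM1 (468) moved above MYL9 (301) and ACTA2 (3.52) above ACTC1 (2.35). The muscle actins were a trace beside the cytoskeletal actins ACTB (2724 ± 328) and ACTG1 (1547 ± 112). ACTC1, ACTA2 and ACTG2 together made 0.0947% ± 0.0109 of the per-kilobase sum of the 6 actins in short-term nontarget cells, then 0.116% ± 0.027 with knockdown, and after long culture 0.0819% ± 0.0136 without and 0.00419% ± 0.00374 with knockdown. TPM1 made 40.7% ± 0.89, 36.6% ± 0.80, 43.2% ± 0.39 and 38.8% ± 0.64 of the 4 tropomyosins in the same order of groups. MYL9 made 30.7% ± 1.01, 29.4% ± 6.51, 33.5% ± 4.22 and 19.3% ± 3.52 of the 4 light chains, and 15.98%, 15.2%, 18.0% and 9.61% with the longest transcripts.

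Most paralogs of these genes were not called. Of 14 listed, 11 were tested, and ACTA1, NPPA and NPPC had too few counts. None was higher and 4 were lower in long-term knockdown against long-term nontarget cells (13.7% and 15.8% of all genes tested), with a median log2 fold change of −0.15 beside 0.00095 over all genes tested. The cytoskeletal actins ACTB (−0.05 ± 0.15, adjusted p = 0.85) and ACTG1 (0.22 ± 0.15, adjusted p = 0.30) were not called, nor were TAGLN2 (−0.02 ± 0.10, adjusted p = 0.92), CNN2 (−0.15 ± 0.15, adjusted p = 0.51), CNN3 (0.12 ± 0.14, adjusted p = 0.56), TPM3 (−0.20 ± 0.08, adjusted p = 0.095) and MYL12B (−0.13 ± 0.14, adjusted p = 0.51). TAGLN3, a neuronal transgelin, was the exception in size. It was at 16.9, 17.0 and 14.4 CPM in long-term nontarget and 2.89, 3.96 and 3.73 CPM in long-term knockdown libraries (−2.12 ± 0.19, adjusted p = 2.3e-07), after a rise with long culture of nontarget cells (1.10 ± 0.17, adjusted p = 0.00054). The light chain MYL12A fell by 0.47 ± 0.12 on the log2 scale long-term (adjusted p = 0.0077), and smaller falls were called for TPM4 (−0.36 ± 0.11, adjusted p = 0.017) and MYL6 (−0.33 ± 0.11, adjusted p = 0.036). The TPM4 call was lost without replicate 1 or 2 of long-term nontarget or replicate 3 of long-term knockdown (adjusted p up to 0.075), and the MYL6 call without replicate 1 of short-term nontarget, 1 or 2 of long-term nontarget, or 1 or 2 of long-term knockdown (up to 0.16). With the replicate number as a block, TPM3 was also called (adjusted p = 0.033). Short-term, only MYL12A among the 11 was called (−0.43 ± 0.12, adjusted p = 0.035), while 4.71% of all genes tested were lower and 5.62% higher. The MYL12A call was lost without any 1 of the short-term nontarget libraries or replicate 2 or 3 of short-term knockdown (adjusted p up to 0.13).

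Among the 12 regulators, 11 were tested, since MYOCD, the muscle-restricted partner of SRF, had 1 count in all libraries. SRF itself was at 83.9, 101 and 114 CPM in long-term nontarget and 63.9, 57.1 and 79.9 CPM in long-term knockdown libraries, without overlap, and fell by 0.57 ± 0.15 on the log2 scale (adjusted p = 0.0080). Short-term it was not called (−0.08 ± 0.15, adjusted p = 0.82). MRTFA (0.36 ± 0.19, adjusted p = 0.16) and MRTFB (0.30 ± 0.15, adjusted p = 0.16) were not called long-term, and neither were RHOA (−0.06 ± 0.09, adjusted p = 0.67), RHOB (−0.10 ± 0.22, adjusted p = 0.78), RHOC (0.16 ± 0.12, adjusted p = 0.36), ELK1 (0.28 ± 0.12, adjusted p = 0.096) and ELK4 (−0.27 ± 0.16, adjusted p = 0.21). FHL2, an SRF target whose protein binds SRF, rose with short-term knockdown (0.54 ± 0.10, adjusted p = 0.0015) and fell with long-term knockdown (−0.57 ± 0.10, adjusted p = 0.00028). The effects at the 2 times differed by −1.11 ± 0.14 (adjusted p = 2.6e-05). RHOB, an endosomal small GTPase, rose short-term (1.15 ± 0.22, adjusted p = 0.0031) and its effects differed by −1.25 ± 0.31 (adjusted p = 0.013). SCAI, a repressor of MRTFA, was higher long-term (0.80 ± 0.25, adjusted p = 0.024) and ELK3 lower (−0.31 ± 0.11, adjusted p = 0.040). The SCAI call was lost without any 1 of the long-term nontarget libraries or replicate 2 of long-term knockdown (adjusted p up to 0.13), and the ELK3 call in 8 of 12 fits without 1 library, highest without replicate 1 of long-term nontarget (0.17). With the replicate number as a block, MRTFA (adjusted p = 0.013) and ELK1 (0.029) were also called higher long-term.

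Other cytoskeletal targets of MRTF and SRF leaned downward after long-term knockdown. Of 30 listed, 29 were tested, 14 fell and 3 rose (15.8% and 13.7% of all genes tested did), with a median log2 fold change of −0.36. TPM4 and CNN2 also stand among the paralogs above. Of the 28 listed genes with a RefSeq promoter, 8 held a CArG box (ACTN1, CNN2, FHL1, FLNA, MYLK, SMTN, TGFB1I1 and TPM4). The genes with the largest falls, named next, are not among them. The largest falls were those of CCN2, a matricellular growth factor (−1.69 ± 0.14, adjusted p = 1.1e-07), the LIM protein CSRP2 (−1.64 ± 0.13, adjusted p = 4.5e-08), the focal adhesion protein TNS1 (−1.30 ± 0.16, adjusted p = 9.6e-06) and AMOTL2 (−1.12 ± 0.17, adjusted p = 0.00013). CCN2 was at 354, 329 and 343 CPM in long-term nontarget and 102, 96.4 and 120 CPM in long-term knockdown libraries. Of the 3 that rose, MYLK, the kinase that phosphorylates MYL9 (0.79 ± 0.09, adjusted p = 3.1e-06), and THBS1, a matrix glycoprotein (1.08 ± 0.20, adjusted p = 0.00069), were picked out after their values were seen. Short-term, 5 of the 29 fell and 3 rose (median 0.05), beside 4.71% and 5.62% of all genes tested. CCN2 (−0.88 ± 0.14, adjusted p = 0.00040), FHL1 (−0.79 ± 0.12, adjusted p = 0.00028) and AMOTL2 (−0.65 ± 0.17, adjusted p = 0.022) were lower and THBS1 higher (0.65 ± 0.20, adjusted p = 0.048). The AMOTL2 call was lost without replicate 1 or 3 of short-term nontarget or 1 or 2 of short-term knockdown (adjusted p up to 0.097), and the THBS1 call in 9 of 12 fits without 1 library, highest without replicate 2 of short-term nontarget (0.19). The effects at the 2 times differed for 12 of 29, with 10 more negative and 2 more positive long-term, beside 8.43% and 4.98% of all genes tested. TNS1 lay furthest (−1.82 ± 0.22, adjusted p = 1.9e-05).

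The immediate early SRF targets, which answer growth factors through the ELK partners of SRF, divided. Of 14 tested, 4 fell and 3 rose with long-term knockdown (median −0.0032), beside 15.8% and 13.7% of all genes tested. EGR2 rose (3.13 ± 0.44, adjusted p = 3.1e-05), and NR4A1 (−1.35 ± 0.42, adjusted p = 0.020), DUSP6 (−0.93 ± 0.19, adjusted p = 0.0011) and KLF6 (−0.88 ± 0.10, adjusted p = 2.1e-06) fell. The NR4A1 call was lost without replicate 2 or 3 of long-term nontarget or 1 or 2 of long-term knockdown (adjusted p up to 0.12).

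**Figure D3:**
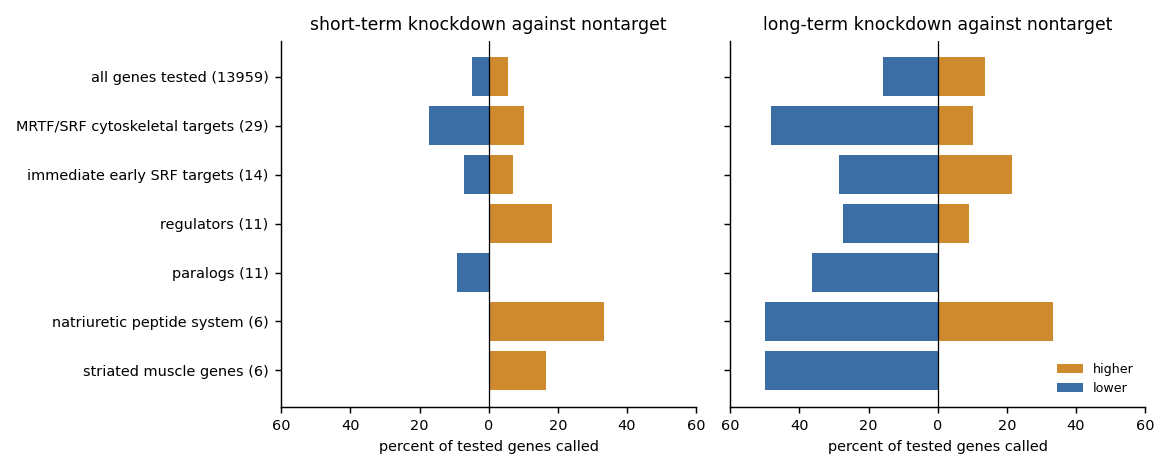
Percent of tested genes called higher (right of 0) and lower (left of 0) with knockdown, short-term and long-term, for 6 lists and for all genes tested; the number tested is in brackets. Long-term, 14 of 29 cytoskeletal targets were lower and 3 higher, while 15.8% and 13.7% of all genes were.

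The genes around NPPB in its own pathway moved in several directions. Of 12 listed genes of the natriuretic peptide system 6 were tested, and 3 fell and 2 rose with long-term knockdown (median −0.50), beside 15.8% and 13.7% of all genes tested. NPR1, the receptor of B-type natriuretic peptide, was at 42.0, 40.5 and 40.1 CPM in short-term nontarget, 53.3, 73.5 and 75.6 CPM in short-term knockdown, 86.4, 108 and 128 CPM in long-term nontarget, and 26.8, 31.1 and 39.9 CPM in long-term knockdown libraries. Like NPPB, it was higher with short-term knockdown (0.72 ± 0.17, adjusted p = 0.0095) and with long culture of nontarget cells (1.39 ± 0.17, adjusted p = 4.3e-05), and it fell with long-term knockdown (−1.72 ± 0.17, adjusted p = 6.4e-07). PDE9A, which breaks down cyclic GMP, was at 4.82, 5.88 and 4.92 CPM in long-term nontarget and 0.462, 0.147 and 0.678 CPM in long-term knockdown libraries (−2.95 ± 0.29, adjusted p = 7.3e-07). With 4, 1 and 4 counts in the latter, its fitted value depends on the prior count. FURIN, a protease that cleaves the NPPB precursor and that was picked out after its values were seen, fell by 0.73 ± 0.16 on the log2 scale (adjusted p = 0.0028). The cyclic GMP kinase PRKG1 (1.52 ± 0.34, adjusted p = 0.0026) and neprilysin, MME, which degrades natriuretic peptides (1.17 ± 0.11, adjusted p = 6.4e-07), rose. NPPA, the atrial peptide gene next to NPPB, had 5 counts over the 12 libraries.

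Several striated muscle genes were present at low levels in these kidney cells and were lowest after long-term knockdown. Of 21 listed, 6 were tested. TNNC1, cardiac troponin C, was at 4.65, 3.49 and 5.34 CPM in short-term nontarget, 10.9, 12.4 and 12.9 CPM in short-term knockdown, 4.15, 5.88 and 6.73 CPM in long-term nontarget, and 0.347, 0.293 and 0.339 CPM in long-term knockdown libraries. It rose with short-term knockdown (1.37 ± 0.21, adjusted p = 0.00030) and fell with long-term knockdown (−3.26 ± 0.30, adjusted p = 3.0e-07). MYL7, the atrial light chain, was at 5.88, 1.37 and 3.46 CPM in short-term nontarget and 1.90, 1.75 and 1.59 CPM in short-term knockdown libraries. It was at 9.92, 11.9 and 12.7 CPM in long-term nontarget and 0.231, 0.147 and 0.509 CPM in long-term knockdown libraries (−4.37 ± 0.40, adjusted p = 2.8e-07). MYL7 rose with long culture of nontarget cells (1.60 ± 0.30, adjusted p = 0.0024). From short-term to long-term knockdown cells it fell by less (−1.85 ± 0.47, adjusted p = 0.0070). TNNT2, cardiac troponin T, held 83 counts in nontarget and 2 in knockdown cells after long culture, 41.0 times lower (95% counting interval 10.99 to 344). These 3 were the called ones, beside 15.8% of all genes tested. With 7 and 6 counts in long-term knockdown cells, the fitted values of TNNC1 and MYL7 depend on the prior count. The other 3 tested had positive values that were not called, MYL3 with every knockdown library above (0.67 ± 0.25, adjusted p = 0.055), TTN (0.23 ± 0.21, adjusted p = 0.46) and TNNT1 (0.12 ± 0.09, adjusted p = 0.38). In long-term against short-term knockdown cells MYL3 (1.10 ± 0.27, adjusted p = 0.0050) and TNNT1 (0.29 ± 0.09, adjusted p = 0.028) were higher. TNNC1, MYL7 and TNNT2 also stand in the list of 8 cardiac muscle markers, whose sum ran from 18.0 to 24.5 CPM in long-term nontarget and from 0.880 to 1.39 CPM in long-term knockdown libraries. Its defining markers MYH6 and MYH7 were at 0 counts in every library.

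**Figure D4:**
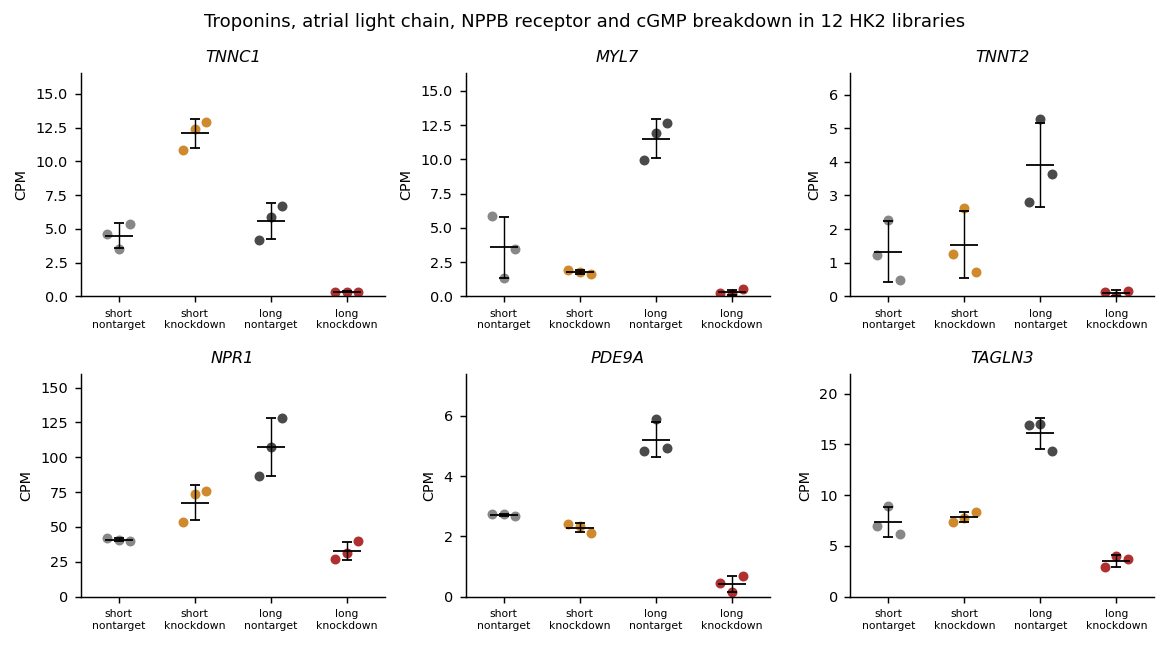
Levels in CPM (vertical axes, linear from 0) of 3 striated muscle genes, NPR1, PDE9A and TAGLN3 in the 12 libraries, by group (horizontal axes). Points are libraries and bars are the mean ± SD of 3; all 6 genes were lower in every long-term knockdown library than in any long-term nontarget library.

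The genes whose log2 CPM followed ACTC1 most closely over the 12 libraries were CCND1 (Pearson r = 0.991), APBA1 (0.988), ADM (0.986), CYFIP2 (0.985) and PDLIM3 (0.984), all described without a test because the 12 libraries fall into 4 groups. CCND1, cyclin D1, averaged 145 CPM in long-term nontarget and 3.49 CPM in long-term knockdown cells, and ADM, the vasodilator peptide adrenomedullin, 16.1 and 1.08 CPM. Closest to NPPB among the same genes were THBS2 (0.984), SHISA9 (0.976), WWC2 (0.976), TTC9 (0.974) and CDH3 (0.973). THBS2, a matrix glycoprotein, averaged 44.2, 96.9, 90.2 and 3.59 CPM in short-term nontarget, short-term knockdown, long-term nontarget and long-term knockdown libraries, and CDH3, placental cadherin, 7.70, 23.0, 16.0 and 1.15 CPM.

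Genes beside ACTC1 and NPPB were set next to them. Within 1000 kb of the ACTC1 start, 12 genes were tested, and their median log2 fold change in long-term knockdown against nontarget cells was 0.12 (range −0.95 to 0.51). ZNF770 (−0.85 ± 0.17, adjusted p = 0.00087, 193 kb away) and AC114546.3 (−0.95 ± 0.27, adjusted p = 0.012, 183 kb away) fell and none rose, beside 15.8% and 13.7% of all genes tested. ZNF770 had risen with short-term knockdown (0.56 ± 0.17, adjusted p = 0.041). Within 1000 kb of NPPB, 23 genes were tested (median −0.16, range −4.09 to 0.23), of which 5 fell and none rose. Neither count was tested against the share over all genes. TNFRSF1B, a receptor of tumor necrosis factor 308 kb away, averaged 5.44 CPM in long-term nontarget and 0.0385 CPM in long-term knockdown cells (−4.09 ± 0.38, adjusted p = 3.1e-07, a fitted value that depends on the prior count), and it also fell with short-term knockdown (−1.98 ± 0.30, adjusted p = 0.00033). The neighbors FBXO2 (−1.25 ± 0.16, adjusted p = 1.1e-05) and FBXO44 (−1.26 ± 0.19, adjusted p = 5.3e-05), 203 and 205 kb away, lay further from 0 than PLOD1 (−0.38 ± 0.12, adjusted p = 0.026), which starts 75.3 kb from NPPB.

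**Figure D5:**
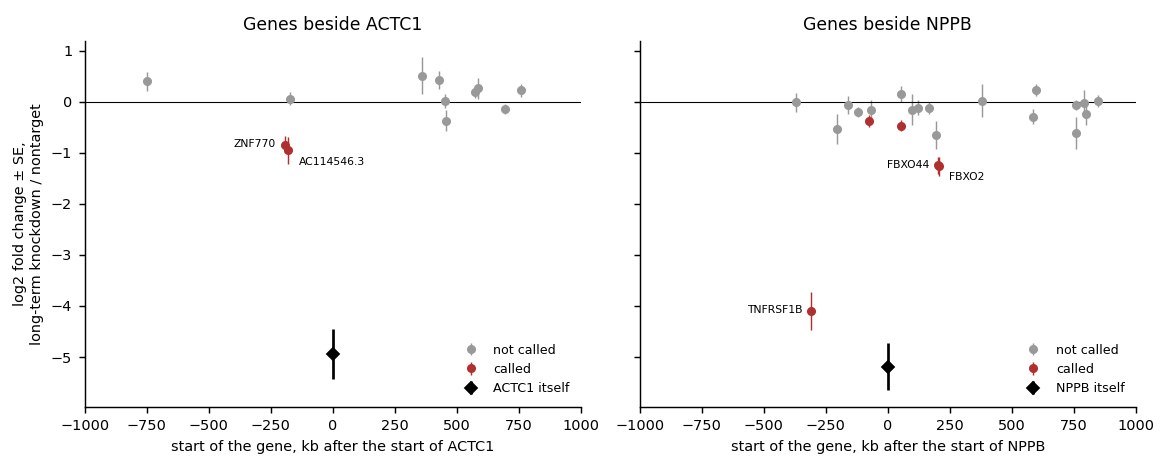
Log2 fold change with SE in long-term knockdown against long-term nontarget cells (vertical axis) of genes that start within 1000 kb of ACTC1 and of NPPB (horizontal axis, kb in the direction of transcription). The medians of the neighbors are 0.12 and −0.16, and TNFRSF1B at −4.09 is the neighbor of NPPB furthest from 0.

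Beyond these 10 genes, 164 tested genes had a CArG box in a RefSeq promoter. In long-term knockdown against nontarget cells, 41 of them fell (25.0%) and 26 rose (15.9%), with a median log2 fold change of −0.08. Of the 10443 tested genes with any promoter in the table, 15.9% fell and 14.4% rose (median 0.0059). Short-term, 16 of the 164 fell (9.76%) and 13 rose (7.93%), beside 4.87% and 5.79%. Whether these shares differ was not tested.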

How the data were processed

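Per the labels and the study's methods, the authors prepared poly(A) RNA with an unstranded TruSeq v2 kit, trimmed reads with fastp, mapped them to GRCh38 with STAR and counted them per gene with featureCounts. Versions, annotation release and strand setting are not given in the sources used here. The deposited raw counts were used, and per-library files differed from the table in 0 values. The authors' DESeq2-normalized values (unit score) were not used.

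Gene IDs were matched to GENCODE 29, with the same version for 55661, another for 2361 (ACTC1, TPM1 and TPM2 among them, so their gene coordinates are not printed) and none for 266. The tests on counts used edgeR 4.0.16 under R 4.3.3 (filterByExpr, TMM, robust quasi-likelihood test, prior count 2, all 12 libraries in 1 model). P-values are two-sided and Benjamini-Hochberg adjusted over the 13959 genes tested, and a call is an adjusted p below 0.05. They measure the spread between libraries labelled biological replicates, whose separate culture is not described. Intervals and floors (3 counts) cover counting error only. The biological coefficient of variation was 12.0%, and replicates differed by more than counting noise in every group.

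The 10 genes and all lists were chosen with earlier results of these data known. The text names these genes, FLCN, all regulators and paralogs, the 4 called genes of each other list with the largest change per comparison where that comparison is described, the 5 genes most like ACTC1 and NPPB, and called neighbors within 1000 kb. FURIN, MYLK, THBS1, TTN, TNNT1, MYL3, VCL, CCN1 and PDLIM5 are named beyond this rule where their values were seen first. Of these, 1 called neighbor of NPPB and 1 of the lists are not reported here.

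Same-numbered libraries were checked for shared deviations. For the 2 comparisons with long-term knockdown cells every pair's correlation was above 0.1 (0.12 to 0.46), and for the other comparisons not. The printed p-values are nonetheless those of the model without a replicate block, unless the block is named. In the 2 comparisons with long-term knockdown cells the block changed no call of the 10 genes. As these genes were chosen with those values known, this says nothing about stability. The calls of other genes that the block changed long-term are given beside them. Alternatives were RLE factors, DESeq2 1.42.0, no filter, a mean of 10 CPM, the block, only the groups compared, a fold limit of 2.5 and leaving out each library.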

Additional observations from a re-analysis of the deposited data

Results flagged for a closer look

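Knockdown went with opposite moves at the 2 times for ACTC1 and NPPB, which is given as values only: the difference was not tested as a result, because these genes were chosen with their long-term values known. All short-term knockdown libraries lay above (log2 fold change 0.86 for ACTC1, not called, and 2.05 for NPPB) and all long-term knockdown libraries below the nontarget libraries of their time.

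For other named genes, the knockdown effect differed between the times by the interaction term of edgeR at an adjusted p below 0.05. The difference (long-term minus short-term, log2) was −4.62 for TNNC1, −3.64 for TNNT2, −3.44 for MYL7, −2.74 for PDE9A, −2.44 for NPR1 and −2.19 for TAGLN3. It was −2.37 for THY1, −2.26 for PDGFRB and −1.56 for RGS5, among the 8 fibroblast or pericyte markers, a list with 4 members under 2 CPM in every library. It was −2.02 for KRT7, −1.10 for EPCAM, −0.94 for PAX8 and −0.54 for KRT18 among epithelial markers. Among SRF targets and regulators it was −1.82 for TNS1, −1.41 for DUSP6, −1.25 for RHOB, −1.13 for CSRP2, −1.11 for FHL2, −0.97 for KLF6, −0.92 for DUSP5, −0.90 for MYH9, −0.87 for TUFT1, −0.85 for ANKRD1, −0.80 for CCN2, −0.70 for ACTN1 and −0.58 for LIMA1. It was positive for MYLK (0.76), MME (0.69) and PFN2 (0.60). The other cytoskeletal targets called were VCL (−0.87), CCN1 (−0.46) and PDLIM5 (0.59), which were not refitted under the alternatives. TNNT2, MYL7 and TNNC1 had 2, 6 and 7 counts in long-term knockdown cells, and PDE9A had 4, 1 and 4 in the libraries of that group. The fitted values of these genes therefore depend on the prior count. The difference was not called for KRT18 in 8 of 12 fits without 1 library, for THY1 in 6 of 12 (without replicate 1 or 2 of short-term nontarget, replicate 2 of short-term knockdown, or any 1 of the long-term nontarget libraries, adjusted p up to 0.079), and for PFN2 without replicate 2 of long-term nontarget or 1 of long-term knockdown (adjusted p = 0.054 and 0.052).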

How the results depend on the processing

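No refitted value changed sign where it was called, and the genes beside ACTC1 and NPPB, FURIN, TTN, TNNT1, VCL, CCN1 and PDLIM5 were not refitted. Of 779 refits of single values for the 9 genes tested, over all 5 comparisons, 746 kept their side of the threshold or their value. They include the 3 comparisons with long-term knockdown cells, whose values were known at the choice, so this share says nothing about stability. With the fold limit of 2.5 the genes called were 1 with short-term knockdown, 1 with long culture of nontarget cells, 6 in long-term knockdown against nontarget cells (in place of 9), 5 in long-term against short-term knockdown cells and 4 in the interaction (in place of 6). With a mean of at least 10 CPM, ACTA2, ACTG2, ACTC1 and NPPB were not tested, and 5, 4 and 3 were called in long-term knockdown against nontarget cells, against short-term knockdown cells and in the interaction. With the replicate block, 7 were called short-term in place of 4, with ACTC1, MYL9 and CALD1 added (adjusted p = 0.0066, 0.038 and 0.041), although not every pair's correlation was above 0.1 there. Leaving out 1 library gave 3 to 5, 2 to 4, 9 to 9, 7 to 8 and 6 to 6 calls in the 5 comparisons. The counts in the 3 comparisons with long-term knockdown cells describe genes chosen with those values known and say nothing about stability. ACTA2 passed with long culture of nontarget cells without filter, with the block, with only the groups compared, with DESeq2 (adjusted p = 0.012, 0.025, 0.014 and 0.039) and without replicate 3 of short-term knockdown or replicate 2 or 3 of long-term knockdown (0.045, 0.023 and 0.043). ACTC1 passed short-term without filter and with DESeq2 (adjusted p = 0.0011 and 0.039). DESeq2 without shrinkage gave −8.35 and −7.86 for ACTC1 and NPPB long-term, which rests on groups of 0 and 1 counts.

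Of 3925 refits of single values for other genes, 3719 kept their side of the threshold, 175 lost a call and 31 gained 1. With the replicate block, calls were also gained in long-term against short-term knockdown cells by SRF, ELK1, ACTB, ACTG1, TPM4 and MYL12A (adjusted p = 0.031, 0.037, 0.018, 0.0091, 0.032 and 0.0081).

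With the longest transcript in place of all exons, the muscle actin share in short-term nontarget cells was 0.109%. The TPM1 share was 46.9%, 43.0%, 49.6% and 45.3%, and the MYL9 share 15.98%, 15.2%, 18.0% and 9.61%, in short-term nontarget, short-term knockdown, long-term nontarget and long-term knockdown cells. ACTG2, ACTA2 and TPM2 had the fewest counts of the 10 genes over the 12 libraries (156, 219 and 15), and differences under their counting error were not detectable. Depth also limits the long-term knockdown values of ACTC1 and NPPB, with 0 counts and 1 count.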
